A study of Mus musculus with 9 samples.

Results

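Long-range accessible regions were taken from a list of chromatin regions that were open in the pharyngeal mesoderm and hearts of wild-type mouse embryos. A region was a member when the coding transcript to which the authors assigned it started more than 100 kb and at most 300 kb away, measured from the region's centre, and regions with the same coordinates were counted once. Of 17164 distinct regions, 1387 (8.08%) were members, and they were assigned to 951 genes. ATAC-Seq found these regions through Tn5, a transposase that inserts sequencing adapters into accessible DNA. The study used dissected E8.75 embryos of 6 somites in 3 groups of 3 libraries, namely wild-type (wt), Isl1-/- and Isl1Cre+/-/ Brg1fl/fl. In the last group Cre recombinase, driven from the Isl1 gene, removes the chromatin remodeler Brg1 from cells that express Isl1. Only the list shared by the 3 wild-type libraries was analysed here, so every value below describes wild-type tissue. That list gives positions without a signal for each library, read depth is unknown, and no spread between embryos can be given. Intervals are 95% Wilson intervals over regions or genes, which cover counting error only, and tests compare the 20 chromosomes (19 autosomes and X), not embryos.

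Much of the control of developmental genes lies far from their promoters. Enhancers are bound by transcription factors and can reach a promoter through DNA looping, at times across other genes, while the zinc finger protein CTCF, together with cohesin, anchors many loops and domain borders. Accessibility marks places where nucleosomes are displaced and is shared by enhancers, insulators, promoters and other elements, so an open region is not by itself an enhancer. The assigned gene is the one named in the list and need not be the gene that a region acts on.

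Central sequences of a few members are shown because they carry the locus and the motifs to which the results below refer. All are on the plus strand of mm9 (NCBIM37), and capitals mark matches on either strand to CTCF (a consensus given by name), TEAD (GGAATG), the E-box CAGCTG, TALE (TGACAG), the GC box (GGGCGG) or SOX (ACAATG). TEAD factors are partners of the coactivator YAP, the E-box is bound by basic helix-loop-helix proteins, TALE homeodomain proteins such as Meis factors bind TGACAG, and the GC box is bound by Sp and Klf factors. The first 3 are the Isl1 members whose central 200 bases held a match. Hhip encodes an inhibitor of hedgehog ligands and Dlgap1 a postsynaptic scaffold. The Klf12 sequence is the centre of the widest member, the Hhip and Dlgap1 sequences are the 2 members with the most kinds of motif among the 5 that were more frequent at region centres than beside them, and the last 2 show the CTCF match in members of synaptic adhesion genes.
Isl1, chr13:117204275-117204474, 104479 bp upstream: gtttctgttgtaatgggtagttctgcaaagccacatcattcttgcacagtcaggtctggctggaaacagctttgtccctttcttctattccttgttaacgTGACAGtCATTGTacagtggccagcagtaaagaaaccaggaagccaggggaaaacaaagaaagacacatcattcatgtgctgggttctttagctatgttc
Isl1, chr13:117233658-117233857, 133862 bp upstream: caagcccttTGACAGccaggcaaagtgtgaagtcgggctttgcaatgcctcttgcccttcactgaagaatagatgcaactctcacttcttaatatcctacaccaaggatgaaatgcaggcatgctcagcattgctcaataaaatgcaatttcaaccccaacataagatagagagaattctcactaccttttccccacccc
Isl1, chr13:117365347-117365546, 265551 bp upstream: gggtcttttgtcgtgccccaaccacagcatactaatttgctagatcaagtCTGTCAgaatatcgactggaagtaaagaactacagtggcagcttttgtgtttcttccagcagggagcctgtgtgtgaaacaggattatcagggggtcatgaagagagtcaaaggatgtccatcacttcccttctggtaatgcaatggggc
Klf12, chr14:100684274-100684473, 135359 bp upstream: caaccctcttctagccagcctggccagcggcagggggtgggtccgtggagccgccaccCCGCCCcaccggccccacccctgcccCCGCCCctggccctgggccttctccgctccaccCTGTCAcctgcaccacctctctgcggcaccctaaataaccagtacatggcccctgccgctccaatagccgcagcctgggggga
Hhip, chr8:82459655-82459954, 122102 bp downstream of the start: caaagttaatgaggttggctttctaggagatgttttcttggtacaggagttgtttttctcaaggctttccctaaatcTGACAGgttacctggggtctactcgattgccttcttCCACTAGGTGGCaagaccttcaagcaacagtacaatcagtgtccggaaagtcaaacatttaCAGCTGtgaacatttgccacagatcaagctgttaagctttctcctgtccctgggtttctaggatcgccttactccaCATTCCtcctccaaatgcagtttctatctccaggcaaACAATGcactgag
Dlgap1, chr17:71033131-71033430, 122194 bp downstream of the start: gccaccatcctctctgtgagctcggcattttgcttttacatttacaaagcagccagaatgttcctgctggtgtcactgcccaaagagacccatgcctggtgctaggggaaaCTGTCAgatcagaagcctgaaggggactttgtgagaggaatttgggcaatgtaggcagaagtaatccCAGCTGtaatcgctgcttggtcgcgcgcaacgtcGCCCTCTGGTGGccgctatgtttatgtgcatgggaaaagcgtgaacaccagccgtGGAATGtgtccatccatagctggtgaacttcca
Nrxn3, chr12:90345043-90345082, 153186 bp downstream of the start: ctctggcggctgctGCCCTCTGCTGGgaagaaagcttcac
Cntnap2, chr6:46963730-46963769, 230726 bp upstream: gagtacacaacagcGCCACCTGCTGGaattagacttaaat

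In these stretches the matches lay apart from each other, except for TALE and SOX in the nearest Isl1 region, where 1 base separated them. The Isl1 sequences held 3 TALE matches and 1 SOX match. The Klf12 sequence held 2 GC boxes and 1 TALE match and was 71.5% GC. The Hhip and Dlgap1 sequences each held CTCF, TEAD, CAGCTG and TALE matches, and the Hhip sequence also held a SOX match.

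The distance label was checked against the GENCODE annotation of mm9. A start of the assigned gene was found in GENCODE for 1275 members, and the deposited distance was within 100 bp of one of its starts in 1144 members (82.5% of 1387, interval 80.4 to 84.4%). The assigned start was also the nearest coding start, within 100 bp, in 731 members (52.7%). For 278 members (20%) GENCODE placed some coding start within 100 kb, and for 53 (3.82%) within 10 kb, so 1 in 5 members was far from its assigned start only. Distances within the class fell off toward the upper limit, with 583 members at 100 to 150 kb, 377 at 150 to 200 kb, 272 at 200 to 250 kb and 155 at 250 to 300 kb. At the lower limit, the nearest members were regions of Lamp5 at 100016 bp and Hey1 at 100022 bp upstream, and the nearest regions left out belonged to Pawr at 99952 bp downstream and Izumo3 at 99846 bp upstream. At the upper limit, members of Tsn at 298154 bp and Lyplal1 at 297998 bp stood inside, and regions of Pcdh20 at 300224 bp and Dmd at 300439 bp stood outside.

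As a check of the tissue, the list held an open region within 1 kb of the start for 5 of 10 markers of heart and pharyngeal mesoderm (Isl1, Tbx20, Hand2, Mef2c and Fgf10). It held one for 1 of 4 neural tube markers (Pax6), 1 of 3 endothelial markers (Kdr), 0 of 3 blood markers and 0 of 2 endoderm markers. Over all 21031 coding genes the share was 39.3% (8272 genes). Counting a region at any distance, the list held 6 of the 10 heart and pharyngeal markers, 2 of 4 neural tube, 3 of 3 endothelial, 1 of 3 blood and 2 of 2 endoderm markers, against 47.7% of all coding genes (10036), so these counts do not set the labelled tissue apart. The presence of a region is the whole measurement here, and the share of cells of each type cannot be read from it.

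Long-range regions were narrow, intergenic or intronic, and poor in CpG. Their median width was 920 bp (quartiles 774.5 and 1102 bp, range 457 to 3876 bp). Regions 10 to 100 kb and beyond 300 kb from their assigned start had similar medians, 946 and 904 bp. Median GC content in the central 300 bp was 48.7%, and CpG frequency was 1.0 per 100 bp. By the position of the midpoint, 846 members (61.0%) were intergenic, 450 (32.4%) were intronic, 19 (1.37%) were exonic and 72 (5.19%) were within 1 kb of an annotated transcript start. Intergenic and intronic members were alike in width (medians 911.5 and 919.5 bp) and in GC content (48.3% each). The base composition of a CpG island, here at least 55% GC with an observed to expected CpG ratio of at least 0.65, was found in 55 members (3.97%). Of these 55, 32 were away from any annotated start. The share was 75.1% in regions within 1 kb of their assigned start, 8.93% at 10 to 100 kb and 2.63% beyond 300 kb. Repeated sequence was a minor component. In 45 members (3.24%) at least 50% of the 31-base words of the centre occurred more than once in the genome. The share was 3.93% at 10 to 100 kb and 5.26% beyond 300 kb. Whether reads can be placed uniquely there was not tested.

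Members lay on both sides of the assigned start. In all, 580 members (41.8%) were upstream and 807 downstream, and the difference lay in members inside the assigned gene. Among 1067 members outside it, 546 (51.2%, interval 48.2 to 54.2%) were upstream. Of the 320 members inside it (23.1%), 34 (10.6%) were upstream of the deposited start, where GENCODE gives the gene a start farther upstream. A further 175 members lay inside a coding gene of another symbol. Place inside a gene was read by equal symbol only. Members in the assigned gene under another symbol were thus counted outside it, as with members of Tenm2 in Odz2 and Tenm3 in Odz3. The count inside the assigned gene is therefore too low by an unknown number, which also affects the upstream shares. The share inside any coding gene was 38.8% at 100 to 150 kb and 24.5% at 250 to 300 kb, and width (924.0 and 896.0 bp) and GC content (49.0 and 48%) differed little between these ends of the range.

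Most genes had a single long-range region, and a small group had many. Of the 951 genes, 664 had 1 member, 197 had 2 and 90 had 3 or more, and those 90 genes held 329 members (23.7%). For 129 genes (13.6%) the long-range members were their only regions in the list. Isl1 and Nrxn3 had the most, 7 each. Isl1 encodes a LIM homeodomain factor of second heart field progenitors, and Nrxn3 encodes a neurexin, a presynaptic adhesion protein.

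All 7 long-range regions of Isl1 were intergenic, and 6 of them were upstream. In order from the start they were chr13:117204098-117204653 (104479 bp upstream, 556 bp wide), chr13:117233011-117234506 (133862 bp, 1496 bp wide), chr13:117285672-117286824 (186352 bp, 1153 bp wide), chr13:117304638-117305777 (205311 bp, 1140 bp wide), chr13:117313594-117314629 (214215 bp, 1036 bp wide) and chr13:117365139-117365756 (265551 bp, 618 bp wide). The seventh, chr13:116991319-116992453, was 108010 bp downstream of the start and 1135 bp wide. The regions at 186352, 205311 and 214215 bp formed a run with gaps of 17813 and 7816 bp. GC content of the 7 centres ranged from 38.7 to 54.3%. The list held 2 more Isl1 regions, 1 at the promoter (1709 bp wide, 74.3% GC) and 1 at 15454 bp downstream (1962 bp wide), and both were wider than every long-range region of the gene. For the downstream member GENCODE listed a nearer coding start, that of the gene model Gm6404 at 47913 bp. The central 200 bases of 4 of the 7 held no match to the motifs marked above.

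**Figure D1:**
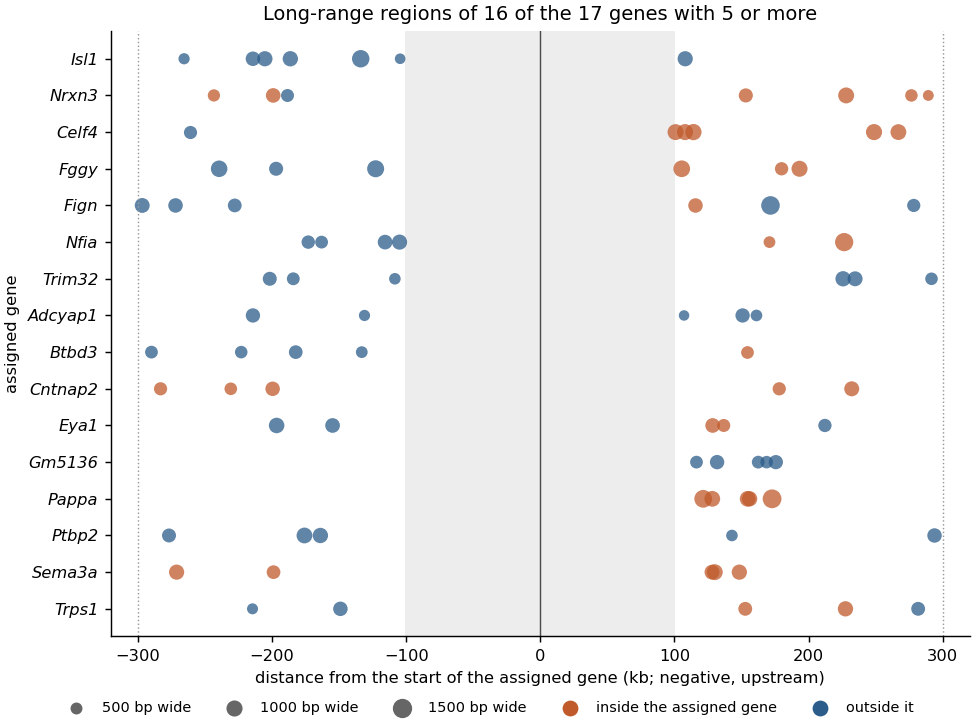
Distance of each long-range region from the start of its assigned gene, in kb with upstream negative, for 16 of the 17 genes with 5 or more members. Each point is 1 region, its area follows its width, orange points lie inside the assigned gene and blue points outside, the grey band is the range below 100 kb that the class leaves out, and dotted lines mark 300 kb. The 7 Isl1 regions lie outside the gene and 6 of them upstream, and the 5 Pappa regions all lie inside the gene and downstream of the start. Only genes longer than 100 kb can hold a member.

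In all, 17 genes had 5 or more members, and the plot of distances by gene shows 16 of these genes. Of their 95 regions together, 41 lay inside the assigned gene, beside 23.1% of all members. Only a gene longer than 100 kb can hold a member, so these counts depend on gene length. Several were large neuronal genes whose members were mostly internal. Nrxn3 had 6 of 7 inside the gene, Celf4 (an RNA-binding protein of neurons) had 5 of 6, and Cntnap2 and Sema3a (a neurexin-family adhesion protein and a secreted guidance cue) had 5 of 5 each. Pappa, a secreted protease that cleaves insulin-like growth factor binding proteins, also had 5 of 5 inside. Its members stretched from 121438 to 172767 bp downstream of the start and were 1147 to 1733 bp wide. Fggy, a carbohydrate kinase gene, had 3 of 6 inside, and Nfia, a nuclear factor I gene, had 2 of 6. Trps1 (a GATA-type repressor) and Eya1 (a coactivator of pharyngeal and ear development) had 2 of 5 each, and Fign (a microtubule-severing enzyme) and Btbd3 (a regulator of dendrite orientation) had 1 of 6 and 1 of 5. For Isl1, Trim32, Adcyap1, Gm5136 and Ptbp2 no member was inside the assigned gene. An open promoter was listed for 12 of the 17 genes and not for Nfia, Adcyap1, Gm5136, Pappa and Trps1. Among all 951 genes with a member the share was 66.4% (631 genes). The 6 members assigned to Trim32, a ubiquitin ligase gene, all lay in introns of Astn2, and the 5 members assigned to Gm5136 all lay in introns of Syt1, which encodes a synaptic calcium sensor.

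The widest member, chr14:100682437-100686312, was 3876 bp wide, intergenic and 135359 bp upstream of Klf12, a transcriptional repressor gene. It was followed by chr9:16303843-16307163 at Fat3 (3321 bp, 122828 bp upstream), chr8:49927770-49930869 at Tenm3 (3100 bp, 169275 bp upstream), chr5:132012651-132015309 assigned to Wbscr17 (2659 bp) and chr4:146790268-146792816 assigned to Zfp985 (2549 bp). Fat3 and Tenm3 encode large adhesion proteins. The region assigned to Wbscr17 was 140 bp from a start of Auts2, with 72.7% GC, so it lay at the start of a gene other than the assigned one. In the Zfp985 region 38.1% of the central 31-base words occurred more than once in the genome. The Klf12, Fat3 and Tenm3 regions were 65.7, 57.3 and 52.0% GC at the centre.

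Regulators of heart and pharynx were among the genes with long-range regions. Of 27 listed cardiac regulators, 7 had at least 1 (25.9%, interval 13.2 to 44.7%), 16 regions in all, and of 24 pharyngeal regulators, 8 had at least 1 (33.3%, interval 18 to 53.3%), 14 regions in all. Across 21031 coding genes the share was 4.32% (909 genes). The median number of members per gene with any was 1 in both lists and over all coding genes. These lists were chosen with results of the same data in view, so the counts are descriptions and carry no test.

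Among cardiac regulators after Isl1, Hey2, a Notch target and transcriptional repressor, had 3 members at 137707, 220226 and 226195 bp upstream. They were 1495, 1232 and 472 bp wide, and all were intergenic. Tbx20, a T-box factor of the developing heart, had 2 at 169754 and 182348 bp upstream (837 and 753 bp wide). Hey1 had 1 at 100022 bp upstream that was 2332 bp wide, and Meis1 and Meis2, which encode TALE homeodomain proteins, had 1 each, 1910 and 2512 bp wide. The Irx3 member, 225279 bp downstream of the start and 2027 bp wide, lay in an intron of Fto. All 7 of these genes also had an open promoter. None of the 16 regions lay inside its assigned gene, beside 23.1% of all members. A gene shorter than 100 kb cannot hold a member, so this count depends on gene length, which was not examined. Among pharyngeal regulators, Eya1 had 5 members, at 196556 and 154852 bp upstream and at 128482, 136745 and 212159 bp downstream of the start, 833 to 1180 bp wide. Dach1 and Nr2f2 had 2 each, and Eya4, Foxc1, Nr2f1, Sall3 and Six2 had 1 each. The Foxc1 member lay in an intron of Gmds. An open promoter was listed for 6 of these 8 genes, Nr2f1 and Nr2f2 being the exceptions, beside the 66.4% of all genes with a member.

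**Figure D2:**
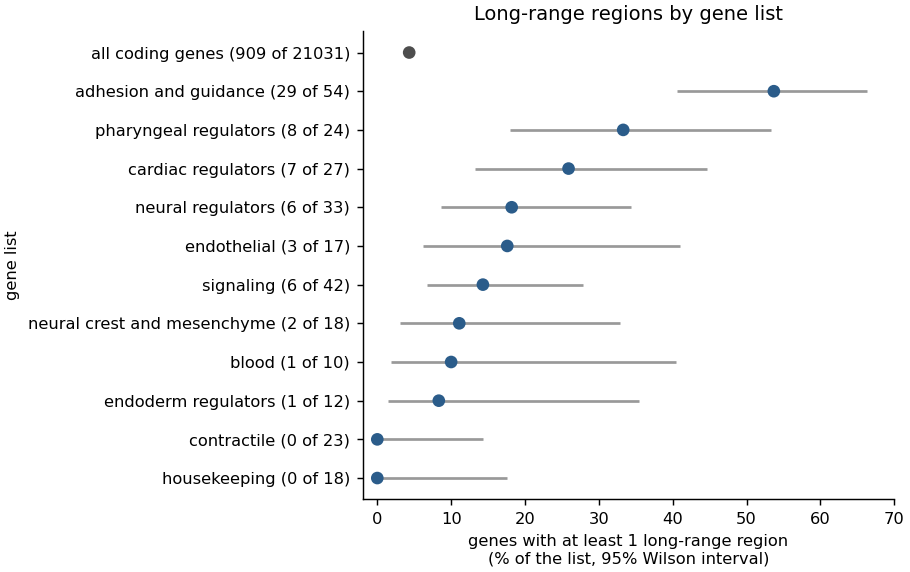
Share of the genes of each list that had at least 1 long-range region, in percent, with the 95% Wilson interval as a horizontal bar and the number of genes beside each name. The share was 53.7% for adhesion and guidance genes, 33.3% for pharyngeal and 25.9% for cardiac regulators, 0 for contractile and housekeeping genes, and 4.32% over all coding genes.

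The other lists ranged more widely, as the plot by gene list shows. Adhesion and axon guidance genes had the highest share, 29 of 54 genes (53.7%, interval 40.6 to 66.3%) with 66 members. A region at any distance was present for 96.3% of this list, against 47.7% of all coding genes. Among its genes were Nrxn3 with 7 members, and Cntnap2 and Sema3a with 5 each. Robo1, a guidance receptor, and Efnb2, an ephrin ligand of arterial endothelium and pharynx, had 3 each. Among signaling genes 6 of 42 had members (14.3%), namely 3 each at Bmp2, a cardiac inducer, and Rarb, a retinoic acid receptor, 2 each at Fgf20, Gli3 and Jag1, and 1 at Cxcl12. The Bmp2 members were at 154409, 205310 and 225342 bp upstream, all intergenic and 920, 1731 and 1037 bp wide. The Rarb members were at 158435 and 120334 bp upstream inside the gene and at 240338 bp downstream outside it.

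Genes of the lists for other cell types also had long-range regions, which do not show that those cells were present. Neural regulators had members at 6 of 33 genes (18.2%), with 2 each at Dbx1 and Lmx1a. An open promoter was listed for 2 of the 6 genes, beside 66.4% of all genes with a member. Of the neural crest and mesenchyme list 2 of 18 genes had a member (Alx1 and Foxd3), of the endothelial list 3 of 17 (Emcn 2, Cdh5 1, Flt1 1), of the endoderm list 1 of 12 (Foxa2) and of the blood list 1 of 10. None of 23 contractile genes had a long-range region (upper bound of the interval 14.3%), and none of 18 housekeeping genes (17.6%). The share over all coding genes, 4.32%, lay inside the intervals of these 2 lists and of the neural crest and mesenchyme, endoderm and blood lists. Any region in the list, at whatever distance, was present for 5 of 23 contractile genes, 15 of 18 housekeeping genes and 47.7% of all coding genes.

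A small set of members lay at an annotated start, and 33 members (2.38%) lay within 1 kb of the start of a coding transcript. Of the 72 members within 1 kb of an annotated start, 26 were at another start of the assigned gene, 20 at a start of a different coding gene and 26 at a start of a noncoding gene or pseudogene only. Examples of the first kind were Sema3a, whose member 271109 bp upstream was 82 bp from another Sema3a start, and Cntnap2, whose member 199533 bp upstream was 197 bp from one. Tcf4, Arid5b, Akap13 and Gria1 gave further examples. For the Cntnap2 and Gria1 members the nearest start of a coding transcript was still 199539 and 163837 bp away. Regions at a different coding gene included the starts of Auts2, Syne2 and Pde4b, assigned to Wbscr17, Esr2 and Gm12789. These 72 members had a median width of 1145 bp, GC content of 54.8% and 3.17 CpG per 100 bp, against 912 bp, 48.3% and 1.0 in the 1315 others, and 23 of them (31.9%) had island composition against 32 (2.43%). Members at a different coding start had the highest median GC content of the 3 kinds, 64.3%.

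Compared with regions 10 to 100 kb from their assigned start (3483 regions), long-range regions were lower in GC and CpG. The mean of the 20 chromosome medians was 48.7% ± 1.02 GC (SD, n = 20 chromosomes) against 51.6% ± 1.26, lower on 20 of 20 chromosomes. The two-sided exact sign test over chromosomes gave p = 1.91e-06, the smallest that 20 chromosomes allow, and an adjusted p of 2.67e-05 over 14 comparisons. CpG frequency was 1.15 ± 0.247 per 100 bp against 1.73 ± 0.278, lower on 19 chromosomes and higher on 0 (exact sign test, adjusted p = 2.67e-05). The GC of the flanks, 3 kb to each side, moved in the same order, with medians of 43.5% at 10 to 100 kb, 41.2% for long-range regions and 38.8% beyond 300 kb. When GC of the centre was taken relative to the flanks, long-range regions were 0.562 points below those at 10 to 100 kb, and the difference no longer passed (exact sign test, adjusted p = 0.0890). Regions beyond 300 kb (647 regions) were in turn lower than long-range regions, by 1.92 points of GC (17 chromosomes against 1, exact sign test, adjusted p = 4.06e-04) and by 0.308 CpG per 100 bp (exact sign test, adjusted p = 0.0132). Relative to the flanks the difference changed sign and did not pass, with long-range regions 0.933 points below those beyond 300 kb (exact sign test, adjusted p = 0.147). Among the wider regions, those no narrower than the list's median of 1123.0 bp (315 of them long-range), the GC differences were -2.63 and 2.95 points and neither passed (exact sign test, adjusted p = 0.134 for both). The CpG differences there, -0.684 and 0.524 per 100 bp, did not pass either (exact sign test, adjusted p = 0.144 and 0.258), and among regions with 45 to 55% GC the CpG difference from regions beyond 300 kb was 0.108 (exact sign test, adjusted p = 0.154).

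**Figure D3:**
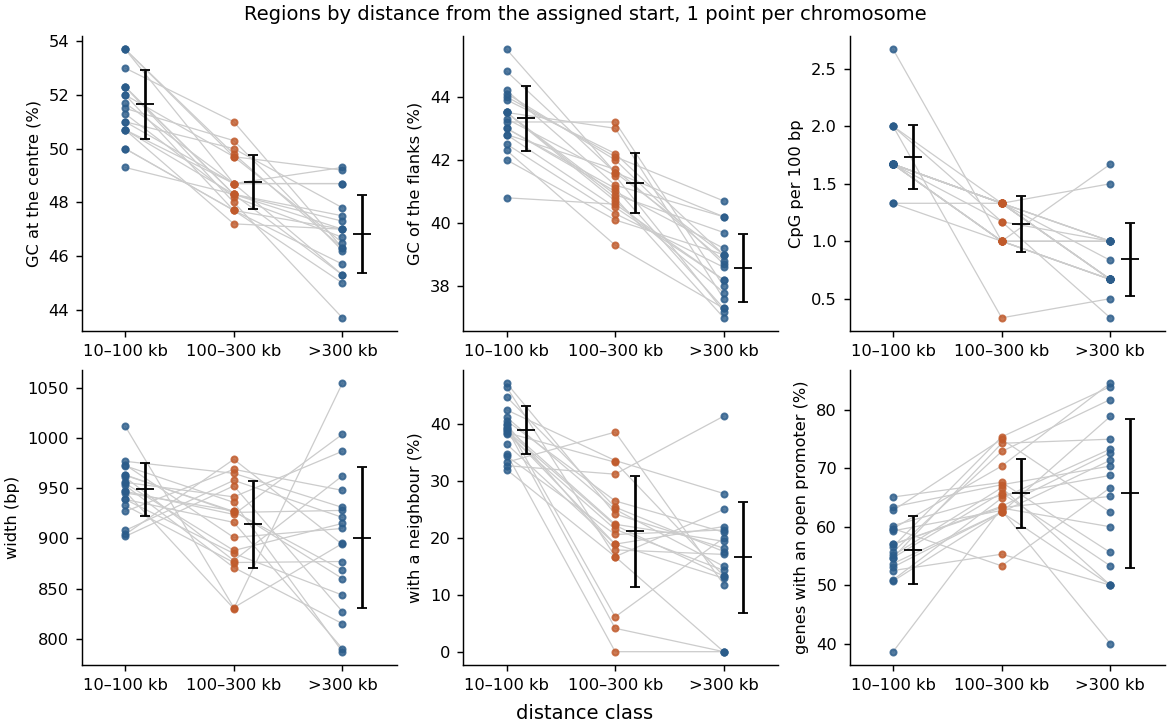
Widths, composition, neighbours and open promoters in regions 10 to 100 kb, 100 to 300 kb (orange) and beyond 300 kb from the assigned start. Each point is 1 chromosome (its median, or its share in percent), grey lines join the same chromosome, and the black bars give the mean and SD over 20 chromosomes on axes that do not start at 0. GC of centres and flanks was lowest beyond 300 kb, and widths of the classes overlapped.

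Long-range regions were slightly narrower than those nearer to genes, and the widths overlapped, as the plot of classes by chromosome shows. They had a mean chromosome median of 914.1 ± 43.1 bp (SD, n = 20) against 948.9 ± 26.6 bp at 10 to 100 kb, lower on 16 of 20 chromosomes (exact sign test, adjusted p = 0.0165). The call ended among regions with 45 to 55% GC, where the means were 901.6 and 916.4 bp and 10 chromosomes went each way (exact sign test, adjusted p = 1.0). It was also lost with noncoding transcripts, with limits of 150 and 300 kb and among the wider regions (exact sign test, adjusted p = 0.135, 0.147 and 0.559). Against regions beyond 300 kb the difference was 13.2 ± 87.2 bp (SD over chromosomes) and did not pass (exact sign test, adjusted p = 0.824).

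The share inside a coding gene was 35.7% for long-range regions, 45.4% at 10 to 100 kb and 23.6% beyond 300 kb, and the share within 1 kb of any annotated start was 5.19, 8.64 and 3.71%. Distance from a coding start chose these classes and bears on both shares directly, so their differences are a description. The share with another listed region within 25 kb was 22.5% in long-range regions against 39.5% at 10 to 100 kb. Over chromosomes it was 17.8 points lower (lower on 19 of 20 chromosomes). The regions counted as neighbours included promoters, and the assigned promoter can lie within 25 kb only for the nearer class. The choice of classes thus bears on this difference too, and it is a description. When only neighbours more than 10 kb from their own start counted, the chromosome means were 21.2 and 20.4%. That difference did not pass (11 chromosomes higher and 9 lower, exact sign test, adjusted p = 0.824). Over regions, this filter left the long-range share at 22.5% and lowered the nearer one from 39.5 to 21.5%. The class limits thus bear on the filtered result as well, and it does not decide whether the classes differ. With neighbours within 10 kb and among the wider regions the difference did not pass either (exact sign test, adjusted p = 0.161 and 0.416). Beyond 300 kb the share with any neighbour was 18.9%, and the difference from long-range regions, 4.63 ± 9.74 points (SD over chromosomes), did not pass (exact sign test, adjusted p = 0.0809). It passed with noncoding transcripts and without regions at starts (exact sign test, adjusted p = 0.00688 and 0.0256).

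Runs of neighbouring members were short. Joining regions with gaps of at most 25 kb gave 1237 runs that held a long-range region, of which 133 held at least 2 and 14 at least 3, and no run held more than 4. The runs with 4 were at Zfp985, at Hs2st1 and Lmo4, and at Atad2b and Klhl29. Runs with 3 included those of Isl1, Celf4, Pappa, Sema3a, and Tbx20 with Herpud2. At Pappa 2 of the regions were 270 bp apart and at Sema3a 2 were 948 bp apart.

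Genes with a long-range region more often had an open promoter than genes with a region at 10 to 100 kb. Here an open promoter is a listed region within 1 kb of the assigned start. It was present for 631 of 951 genes (66.4%, interval 63.3 to 69.3%) against 1507 of 2651 (56.8%, interval 55 to 58.7%). Over chromosomes the means were 65.7 ± 5.86% and 56.0 ± 5.75% (SD, n = 20), higher on 19 of 20 chromosomes (exact sign test, adjusted p = 1.40e-04). The 2 gene sets shared 445 genes, 46.8% of the first and 16.8% of the second, and among genes in 1 set only the shares were 65.0% and 54.6%. Among regions with 45 to 55% GC the difference was 4.05 points and did not pass (exact sign test, adjusted p = 0.705), and among the wider regions it was 8.11 points (exact sign test, adjusted p = 0.222). For genes with a region beyond 300 kb the share was 67.7% (interval 62.6 to 72.5%), and the difference from long-range genes did not pass (-0.00526 ± 11.5 points, SD over chromosomes, exact sign test, adjusted p = 0.542).

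Matches to 20 short transcription factor motifs were counted in the central 300 bp of long-range regions and in 300-bp windows 3 kb to each side. A match is a stretch of letters and not a bound site. For 6 of 20 motifs the shares differed past the threshold, 5 higher at the centre and 1 lower, and 7 motifs had an unadjusted p under 0.05. CTCF was present in 59 centres (4.25%, interval 3.31 to 5.45%) and in 0.180% of flanks, and it was higher on 18 chromosomes and lower on 0 (exact sign test, adjusted p = 5.09e-05 over 20 motifs). Its share over all 17164 regions was 2.32%. CAGCTG was present in 22.9% of centres and 11.3% of flanks (19.5% of all regions), with 19 chromosomes higher and 0 lower (exact test, adjusted p = 3.81e-05). TEAD was present in 23.7% and 16.2% (15.4% of all regions, exact test, adjusted p = 0.0148), and TALE in 26.0% and 19.2% (18.5% of all regions, exact test, adjusted p = 0.00161). The GC box was present in 10.9% and 2.02% (45.7% of all regions, exact test, adjusted p = 3.81e-05). MEF2, a run of A and T given by name, was lower at the centre, at 2.31% against 7.21% (1.24% of all regions, exact test, adjusted p = 2.00e-04).

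**Figure D4:**
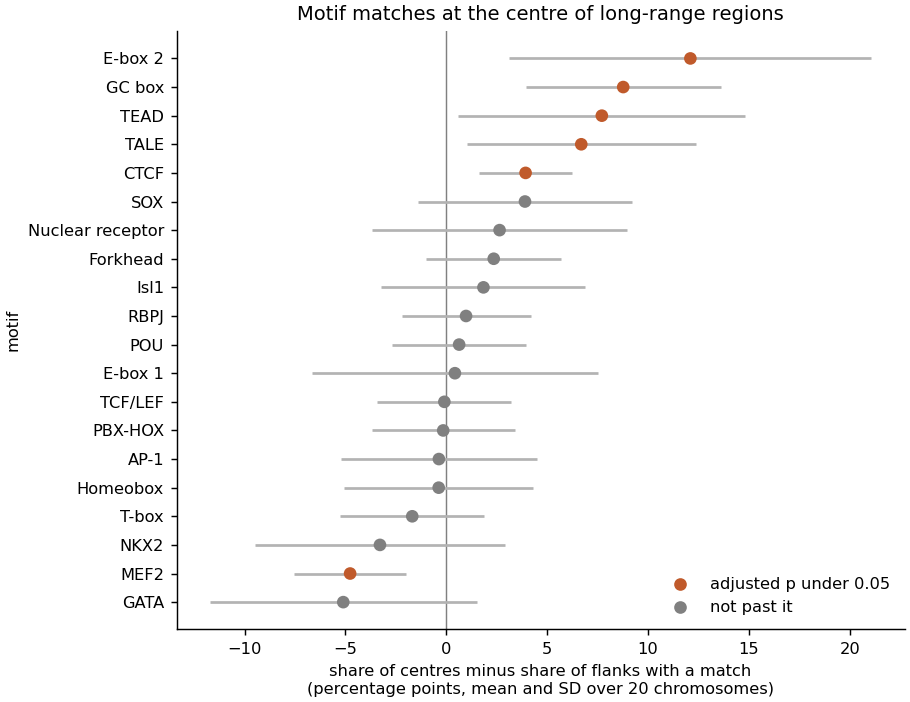
Share of long-range regions with a motif match in the central 300 bp minus the share of flanking windows 3 kb away, in percentage points, as mean and SD over 20 chromosomes for 20 motifs. Orange points passed at an adjusted p under 0.05 and grey points did not; E-box 1 is CAGATG, E-box 2 is CAGCTG and the homeobox motif is TAATTA. E-box 2 had the largest difference, 12.1 points, and MEF2 is the orange point below 0.

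The base composition of centres and flanks differed, at medians of 48.7 and 41.2% GC. In the 257 members whose centre and flanks were within 3 points of GC (medians 45.3 and 44.3%), CTCF remained higher at the centre, at 5.73% against 0.245% (17 chromosomes compared, 9 higher and 0 lower, exact sign test, adjusted p = 0.0418). The differences for TEAD and TALE were then 5.32 and 5.13 points, near those in all members (7.71 and 6.69), and did not pass (exact test, adjusted p = 0.549 for both). The differences for CAGCTG, the GC box and MEF2 were 1.58, 1.76 and 0.0436 points (exact test, adjusted p = 1.0 for each). The T-box motif (AGGTGTG), which did not pass in all members (-1.69 points, exact test, adjusted p = 0.396), was lower at the centre in this subset, at 1.90% against 6.09% (exact test, adjusted p = 0.0418). The motif of Isl1 itself (CTAATTG or CTAATGG) was present in 113 centres (8.15%, interval 6.82 to 9.70%) and 6.52% of flanks and did not pass (exact test, adjusted p = 0.475). In all members the GATA motif (AGATAA) stood at 16% of centres and 21.3% of flanks (exact test, adjusted p = 0.141). The NKX2 motif (TNAAGTG) stood at 16.2 and 19.4% (exact sign test, adjusted p = 0.231). Both changed sign in the subset matched for GC, at 21.7 against 16.2% for GATA and 23.3 against 15.8% for NKX2 (chromosome means). Neither passed there (exact sign test, adjusted p = 0.549 and 0.395).

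**Figure D5:**
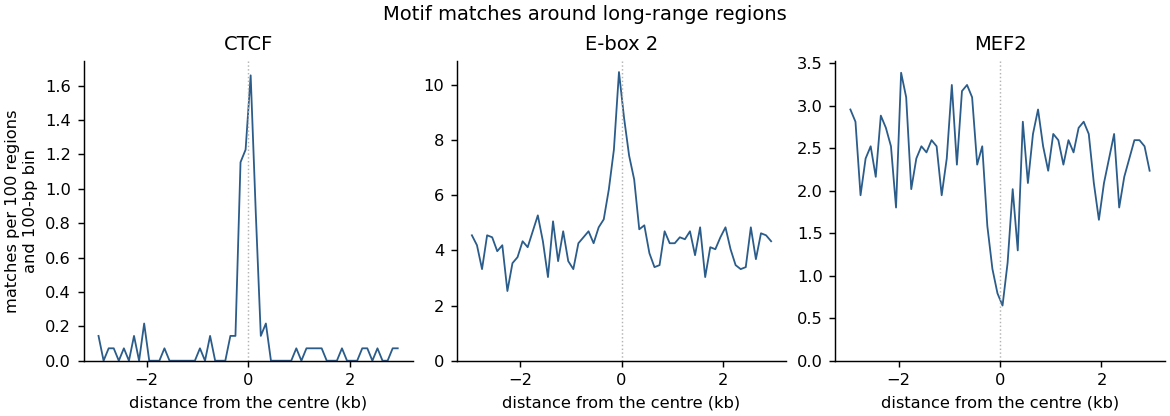
Motif matches per 100 long-range regions in bins of 100 bp, within 3 kb of the centre, for CTCF, E-box 2 (CAGCTG) and MEF2, each on its own axis from 0. CTCF matches were near 0 away from the centre and reached 1.66 per 100 regions in the bin next to it, CAGCTG reached 10.5, and MEF2 was 0.649 there at its lowest.

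CTCF matches lay close to the centre, as the profile around the centre shows. Over whole regions, 76 members (5.48%) held a CTCF match, 75 of them 1 match and 1 of them 2. In members with 1 match its median distance from the centre was 91.0 bp, 59 lay within 150 bp, and the farthest lay at 380 bp. The 76 members were narrower than the rest (median 803.5 against 927.0 bp), 15 of them (19.7%) were inside a coding gene, 1 was at an annotated start, and they were spread over 74 assigned genes. Where the strand of the assigned gene was known, 31 of 68 matches (45.6%, interval 34.3 to 57.3%) pointed toward the assigned start. Among members without a CTCF match 23.0% had a neighbour within 25 kb, and among those with one 13.2%, as a description.

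Motif shares in long-range regions were then compared with those of the nearer and farther classes. Against 10 to 100 kb, 2 of 20 motifs passed and 5 had an unadjusted p under 0.05. SOX was present in 22.6% of long-range centres (314 members, interval 20.5 to 24.9%) against 16.6%, higher on 19 of 20 chromosomes (exact sign test, adjusted p = 4.01e-04). The GC box was present in 10.9% against 20.9%, lower on 19 of 20 (exact test, adjusted p = 4.01e-04). In regions with 45 to 55% GC neither passed, at 23.7 against 18% for SOX and 7.34 against 11.8% for the GC box (chromosome means, exact sign test, adjusted p = 0.118 for both). Neither passed among the wider regions (exact sign test, adjusted p = 0.863 for SOX and 0.309 for the GC box), and with noncoding transcripts the SOX call was lost, at 22.8 against 17.5% (16 chromosomes higher and 4 lower, exact sign test, adjusted p = 0.0788). The homeobox motif TAATTA stood at 10.6 and 7.44% (exact test, adjusted p = 0.0788) and the Isl1 motif at 8.15 and 5.46% (exact test, adjusted p = 0.166). CTCF did not differ past the threshold, at 4.25 and 4.91% (a difference of -0.640 ± 2.68 points, SD over chromosomes, exact sign test, adjusted p = 0.915). Against regions beyond 300 kb, 0 of 20 motifs passed by the exact sign test (lowest adjusted p = 0.255), and 2 had an unadjusted p under 0.05. These were CTCF, at 4.25% in long-range regions and 2.47% beyond 300 kb, and SOX, at 22.6 and 26.4%.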

How the data were processed

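The deposited list holds, for each region common to the 3 wild-type libraries, its chromosome, start and end, the distance in bp to the assigned start, a RefSeq accession and a gene symbol. It contains no read count, signal or p-value. Per the labels and the study's methods, the authors mapped reads to mm9 with Bowtie2, removed duplicates with Picard 1.136, called peaks with MACS and intersected the libraries with bedtools 2.15. No offset for the Tn5 cut is stated, so region edges carry the extension of the reads, and widths also depend on a depth that is unknown. A common region keeps the coordinates of 1 library, and a region missing from any of the 3 libraries is not listed. Of 17432 rows, 17164 had distinct coordinates. Positions were read as 1-based and closed.

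Bases were read from NCBIM37, which is mm9, and transcripts from GENCODE vM1, and RefSeq gene names came from a table of assembly GRCm38.p6 whose coordinates were not used. The midpoint was placed, in this order, within 1 kb of a start, in an exon, in an intron or between genes. GC, CpG and motifs were read in the central 300 bp and in 300 bp lying 3 kb to each side.

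Each comparison took the median or share per chromosome, for chromosomes with at least 5 regions in each class, and a two-sided exact sign test over up to 20 chromosomes. P-values were adjusted by the Benjamini-Hochberg method over 14 class comparisons or 20 motifs, with a threshold of 0.05. The calculations used Python 3.11.15, pandas 2.3.3 and scipy 1.17.1, and the tests were tried on simulated data. Chromosomes are not embryos, so these p-values describe this list and not variation between animals. Values were columns of position only, and 0 value columns were left unmapped.

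Members, gene lists and motifs were chosen with earlier results of these data known. Named genes were the 10 with the most members with ties (17 in all, more than the 14 foreseen, since 9 genes tied at 5), the 5 widest members, Isl1, the cardiac and pharyngeal genes, up to 3 genes of each other list, and the regions at the limits. A few genes that this rule names are not reported here. Robo1, Efnb2, Cxcl12, Gli3 and Jag1, the examples at annotated starts and the genes of the runs were chosen after their values were seen.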

Additional observations from a re-analysis of the deposited data

How the results depend on the processing

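No paired analysis was possible because the 3 wild-type libraries are given as 1 common list, and for the same reason no library could be left out. The share at a start has no value without regions at starts. Of 155 results under alternatives for class comparisons and motif counts, 122 stayed on the same side of the threshold with the same sign, or as a count within 1.5 times. Differences below are long-range minus the other class (bp, percentage points or CpG per 100 bp), with adjusted p of the exact sign test. Shares at a start or inside a gene are descriptions and carry no p. Among regions at least as wide as the list's median, the differences from 10 to 100 kb were -11.3 bp (0.559), -2.63 GC (0.134), -0.684 CpG (0.144), -5.06 at a start, -4.70 inside a gene, -12.4 with a neighbour (0.416) and 8.11 for open promoters (0.222), and those from beyond 300 kb were 2.95 GC (0.134), 0.524 CpG (0.258) and 12.2 inside a gene, with 0 motifs against 10 to 100 kb. Fewer regions enter there. With noncoding transcripts the values were 5.24 for SOX (0.0788), -35.3 bp (0.135) and -8.75 inside a gene, and beyond 300 kb 4.98 with a neighbour (0.00688) and 2.98 for open promoters (0.503). With GENCODE classes, values beyond 300 kb were 1.01 at a start and 3.67 for open promoters (0.387). Without starts they were 4.70 with a neighbour (0.0256) and 0.264 for open promoters (0.503). With limits of 150 and 300 kb the values were -34.0 bp (0.147), -3.25 at a start, and beyond 300 kb 10.00 inside a gene and 0.813 for open promoters (0.824). With neighbours within 10 kb the difference from 10 to 100 kb was -3.73 (0.161). The settings that follow were chosen after seeing the data. With 45 to 55% GC the values were -14.7 bp (1.0) and 4.05 for open promoters (0.705), beyond 300 kb -13.9 bp (0.756) and 0.108 CpG (0.154), and 0 motifs against 10 to 100 kb. With neighbours away from starts the difference was 0.773 (0.824). GC relative to the flanks differed by -0.562 (0.0890) and -0.933 (0.147). With GC-matched flanks 2 motifs passed, and MEF2 stood at 0.0436 (1.0). The cause of these shifts was not tested.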
